A study of Mus musculus with 6 samples.

Results

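The collagen genes are described here in 6 ATAC-seq libraries from mouse neural progenitors, 3 made after overexpression of the nuclear receptor Nr6a1 and 3 after a fluorescent protein alone. ATAC-seq counts DNA fragments cut out of open chromatin, and the deposited table counts them in consensus intervals, the regions open in these cells on the mm10 build of the mouse genome. A collagen interval is one whose midpoint lies inside a protein-coding gene named Col, number, a, number, or one whose nearest protein-coding gene end belongs to such a gene and lies within 100 kb. By this rule 175 of 52223 intervals were collagen intervals, 137 with the midpoint inside a gene and 38 outside. They belonged to 42 of the 44 collagen genes of the RefSeq table, and Col10a1 and Col5a2 had none. One interval near Col19a1 was described apart, which left 174, and 173 of these had enough fragments to be tested. The family was selected on the Nr6a1OE against mScarlet fold changes and calls of an earlier analysis of these libraries, so the differences between these groups at its members are given as a description. Counts of calls among them support nothing beyond that description.

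In every library, mouse embryonic stem cells were turned into neural progenitors in N2B27 medium. They were plated in bFGF at 10 ng/ml, moved to 5 μM of the GSK3β inhibitor CHIR99021 on day 2 and given 100 nM retinoic acid (RA) with 10 nM of the Smoothened agonist SAG on day 3, and kept in SAG alone from day 5. On day 5 the cells received a lentivirus for mScarlet3, the control group called mScarlet, or for Nr6a1 joined to mScarlet3 through a 2A sequence, the group called Nr6a1OE. Cells positive for mScarlet3 were sorted on day 9, and 50000 were used per library. Both groups therefore share the differentiation, a virus, mScarlet3 and the sort. The labels name no promoter for the transgene and do not say whether the 3 libraries of a group came from separate cultures.

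Collagens are secreted or membrane-bound proteins in which 3 chains wind into a triple helix. Fibril-forming collagens such as types I, II and III build the cables of skin, bone and cartilage, and type IV collagens build the sheet of basement membranes. Fibril-associated collagens, which carry interrupted helices (FACIT), sit on fibrils, type VI forms beaded filaments, type VII anchors epithelia, and the multiplexins XV and XVIII lie in basement membrane zones. In the early neural tube the neuroepithelium rests on a basement membrane that holds type IV and type XVIII collagen, and Col2a1 is known to be active beyond cartilage, in the notochord and the neuroepithelium. Nr6a1, also called GCNF, is an orphan nuclear receptor that is known to bind direct repeats of the half-site AGGTCA without a spacer.

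Type IV collagen genes lie in head-to-head pairs, and Col18a1 has alternative starts, so their promoters show how differently collagen starts were built and opened in these cells. The RefSeq promoter windows (GRCm38.p6, from 250 bases before to 50 after the start) are printed 5′ to 3′ on the strand of each gene. Capitals mark CpG dinucleotides. The windows are Col4a1 (chr8:11312777-11313076, minus strand), Col4a2 (chr8:11312555-11312854, plus), Col4a4 (chr1:82586800-82587099, minus), Col4a5 (chrX:141475169-141475468, plus), Col4a6 (chrX:141474027-141474326, minus), the upstream start of Col18a1 (chr10:77166481-77166780, minus) and its internal start (chr10:77113656-77113955, minus).
Col4a1: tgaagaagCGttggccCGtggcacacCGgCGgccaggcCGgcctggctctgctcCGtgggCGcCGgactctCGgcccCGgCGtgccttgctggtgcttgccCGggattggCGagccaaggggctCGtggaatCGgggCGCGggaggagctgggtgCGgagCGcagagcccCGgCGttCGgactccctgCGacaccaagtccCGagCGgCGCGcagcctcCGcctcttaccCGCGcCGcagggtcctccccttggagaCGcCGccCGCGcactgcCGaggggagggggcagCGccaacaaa
Col4a2: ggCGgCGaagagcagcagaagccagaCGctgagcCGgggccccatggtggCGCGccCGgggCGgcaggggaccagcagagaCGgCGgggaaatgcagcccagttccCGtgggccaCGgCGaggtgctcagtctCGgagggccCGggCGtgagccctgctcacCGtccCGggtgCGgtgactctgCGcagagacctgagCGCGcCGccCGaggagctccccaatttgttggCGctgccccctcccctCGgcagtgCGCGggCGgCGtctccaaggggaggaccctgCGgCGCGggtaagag
Col4a4: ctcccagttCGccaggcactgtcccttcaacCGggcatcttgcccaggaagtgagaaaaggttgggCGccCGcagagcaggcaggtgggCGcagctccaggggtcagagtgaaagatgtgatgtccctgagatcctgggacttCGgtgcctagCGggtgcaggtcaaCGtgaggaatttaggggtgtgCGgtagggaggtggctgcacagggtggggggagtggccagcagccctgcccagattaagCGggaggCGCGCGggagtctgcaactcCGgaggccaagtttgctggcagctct
Col4a5: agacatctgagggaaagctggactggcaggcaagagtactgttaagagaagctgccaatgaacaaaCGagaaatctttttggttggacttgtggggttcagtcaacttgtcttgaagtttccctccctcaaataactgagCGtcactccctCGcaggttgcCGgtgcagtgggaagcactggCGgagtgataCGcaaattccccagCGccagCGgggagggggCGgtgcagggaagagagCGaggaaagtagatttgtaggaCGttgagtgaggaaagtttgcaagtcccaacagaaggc
Col4a6: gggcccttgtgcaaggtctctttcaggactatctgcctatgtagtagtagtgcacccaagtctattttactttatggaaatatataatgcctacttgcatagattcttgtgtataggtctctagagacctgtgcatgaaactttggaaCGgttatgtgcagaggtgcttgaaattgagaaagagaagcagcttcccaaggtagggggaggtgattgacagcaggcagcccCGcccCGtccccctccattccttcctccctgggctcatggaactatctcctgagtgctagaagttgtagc
Col18a1 upstream start: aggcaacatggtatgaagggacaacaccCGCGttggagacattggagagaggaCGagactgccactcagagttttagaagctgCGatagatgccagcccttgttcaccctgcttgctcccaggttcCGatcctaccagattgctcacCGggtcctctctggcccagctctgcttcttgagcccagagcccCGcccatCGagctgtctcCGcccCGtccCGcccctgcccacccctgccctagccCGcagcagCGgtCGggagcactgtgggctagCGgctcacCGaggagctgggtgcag
Col18a1 internal start: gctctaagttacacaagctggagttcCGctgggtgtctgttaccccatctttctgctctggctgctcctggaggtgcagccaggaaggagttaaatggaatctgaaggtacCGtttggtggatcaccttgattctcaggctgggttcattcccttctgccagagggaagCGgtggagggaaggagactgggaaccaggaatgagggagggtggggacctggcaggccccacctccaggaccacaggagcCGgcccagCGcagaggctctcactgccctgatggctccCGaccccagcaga

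The Col4a1 and Col4a2 starts are 21 bases apart on opposite strands, so their windows share 78 bases, read from opposite strands, and hold 37 and 33 CpGs. A single interval (chr8:11311797-11314032) covered both, with 66.6 ± 5.11 CPM in mScarlet and 67.5 ± 3.61 in Nr6a1OE (SD, n = 3 each), where CPM is the fragment count scaled to library size. Col4a4 (14 CpGs) overlaps an end of Col4a3, which has no entry in the promoter table, and the interval over that overlap was much weaker, at 2.13 ± 0.310 and 2.27 ± 0.128 CPM. Col4a5 (11 CpGs) and Col4a6 (3 CpGs) start 1343 bases apart and had an interval each, at 10.7 ± 0.945 CPM for Col4a5 and 3.68 ± 0.768 for Col4a6 in mScarlet. In Nr6a1OE these were 11.1 ± 0.631 and 4.81 ± 1.13 CPM. The order of the type IV pairs, Col4a1 and Col4a2 above Col4a5 and Col4a6 above Col4a3 and Col4a4, held for the group means of both groups. At Col18a1 the upstream start (16 CpGs) lay in an interval of 84.5 ± 2.84 CPM in mScarlet, and the internal start (6 CpGs), 52.8 kb into the gene, lay in none.

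The promoter table held 38 starts of 35 collagen genes, and an interval covered 24 of these starts, belonging to 23 genes. Covered starts had a median of 16 CpGs (range 3 to 37), and the 14 uncovered ones a median of 4 (0 to 16), beside 7 over all 32851 promoters in the table. The strongest covered start per kb was that of Col23a1, a transmembrane collagen, at 45.8 CPM per kb in mScarlet (24 CpGs). Next came Col5a1, a chain of the fibril-nucleating type V, at 43.2 CPM per kb (34 CpGs), and the upstream start of Col18a1, at 40.4. Col8a2, a short-chain collagen of Descemet's membrane, showed that CpG number and accessibility do not run together at each gene: its window holds 32 CpGs and its start had 6.26 CPM per kb. CpG number varies with base composition, and no test was made on these starts. A search of both strands found the half-site AGGTCA in 8 of the 38 windows (21.1%), namely those of Col11a1, Col20a1, Col23a1, Col24a1, Col4a4, Col6a5, Col7a1 and 1 of the starts of Col9a1, and in 16.3% of all promoters. The half-site repeated without a spacer was in 0 of the 38 and in 2 of all promoters, and the extended half-site TCAAGGTCA, which contains AGGTCA, was in 0 of the 38 and 0.423% of all. These are letter matches in a 300-base window and say nothing of binding.

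**Figure D1:**
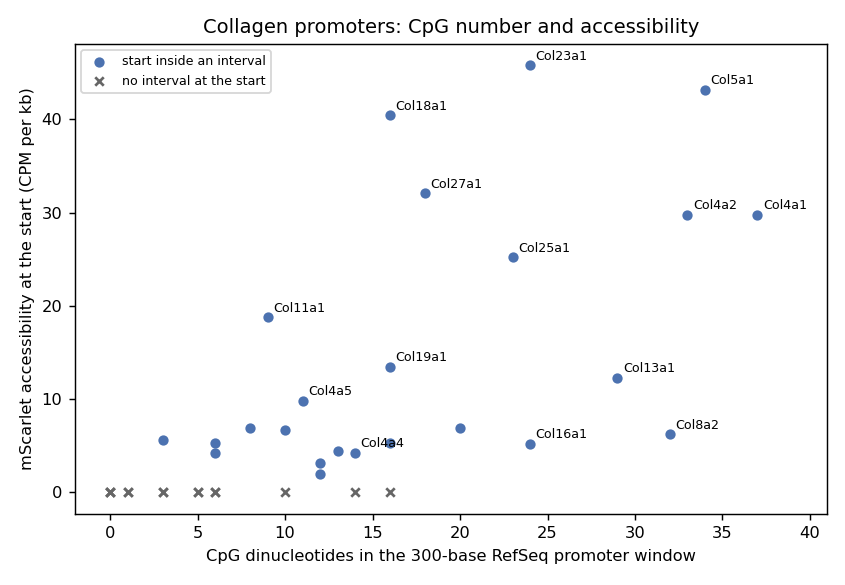
Accessibility of collagen starts in mScarlet (y axis, mean CPM per kb of the covering interval) against the number of CpGs in the RefSeq promoter window (x axis). Each of the 24 points is a covered start and each cross one of the 14 starts with no interval, drawn at 0. The starts above 40 CPM per kb are those of Col23a1, Col5a1 and Col18a1, and the uncovered starts hold at most 16 CpGs.

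The libraries held 6857763 to 8030029 fragments in intervals, so a typical collagen interval, at a median of 39.7 fragments per library, was counted with limited precision. The median collagen interval had 5.23 CPM in mScarlet, beside 7.20 over all intervals. Of the 174, 80 (46.0%) were under 5 CPM, against 38.2% of all. Of the collagen intervals, 23 of 174 (13.2%) had their midpoint within 1 kb of an end of their own gene, while 24.2% of all intervals lay within 1 kb of a gene end. The label of the cells was checked on marker genes. All 10 neural progenitor markers had an interval within 1 kb of a gene end, at 9.44 to 69.2 CPM per kb in mScarlet (median 31.7). Such an interval was also found at 3 of 5 neuron markers (highest 40.5 CPM per kb), 3 of 4 neural crest markers (highest 18.1) and 6 of 10 mesenchyme and fibroblast markers, the highest Twist1 at 26.4, with none at Prrx1, Lum, Postn and Meox1. It was found at 2 of 4 chondrocyte markers (none at Matn1 and Runx2), where Sp7, at 35.7 CPM per kb, was above the progenitor median. The remaining lists had 2 of 6 for endothelium (highest 26.3), 2 of 4 for endoderm (highest 19.1) and 1 of 4 for pluripotent cells (4.23), with none at Pou5f1 and Nanog. In bulk libraries, a few cells of another type and a small change in every cell cannot be told apart, and their part in the collagen values was not tested.

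One interval was kept out of every collagen count and gene sum that follows, but not out of the counts over all intervals. It lies 25.3 kb from the end of Col19a1, a FACIT gene, at chr1:24612791-24613613, and the rule sets it apart as a place where reads like those of mitochondrial DNA may gather. It was the strongest of all 52223 intervals, both in CPM and per kb, with 492 CPM per kb against 46.0 at the strongest other collagen interval, each as a mean over the 6 libraries. The mScarlet libraries 1 to 3 gave 359, 407 and 353 CPM and the Nr6a1OE libraries 433, 463 and 415. All Nr6a1OE values were above all mScarlet values, with a log2 fold change of 0.23 (SE 0.026). That SE was worked out from the F statistic of edgeR's quasi-likelihood test, not from the spread of these libraries alone. The adjusted p of 1.2e-14 in that test became 0.44 in DESeq2 and 0.80 in edgeR with 10% of assumed variation between cultures. Whether the difference stands out therefore depends on the fit used. The part that mitochondrial reads play in this interval was not tested.

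Over the other collagen intervals, accessibility differed little between the groups, with a slightly higher sum in Nr6a1OE. The summed signal was 1803, 1824 and 1798 CPM in mScarlet 1 to 3 and 1911, 1893 and 1880 CPM in Nr6a1OE 1 to 3, so every Nr6a1OE library was above every mScarlet library by a few percent. The log2 fold change (Nr6a1OE over mScarlet) was above 0 at 116 of 173 tested intervals (67.1%) and below 0 at 57, beside 50.8% above 0 over all 51637 intervals tested. Its median was 0.097, beside 0.0038 over all intervals. Taken per library against the mScarlet mean, the median log2 ratio was 0.110, 0.076 and 0.037 in Nr6a1OE 1, 2 and 3. Leaving out Nr6a1OE 2 lowered the median to 0.056, a change of more than 1.5 times.

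An interval is called opened or closed where edgeR's quasi-likelihood test gave a Benjamini-Hochberg adjusted p under 0.05 over all tested intervals. Among the collagen intervals 4 were opened, in Col2a1, Col4a4 and Col18a1 (2 intervals), and 2 were closed, in Col12a1 and Col14a1. Over all intervals 0.469% were opened and 1.26% closed. In 24 collagen intervals all 3 Nr6a1OE libraries were above all 3 mScarlet libraries, and in 6 all were below, where the background over all intervals is 7.89% and 8.73%. Because the comparison took part in choosing the family, nothing is read from these shares. By level, the median log2 fold change was 0.100 at collagen intervals averaging under 5 CPM, 0.109 from 5 to 10 CPM, 0.051 from 10 to 30 CPM and 0.027 at 30 CPM and more. Over all intervals these medians were 0.010, 0.009, 0.014 and -0.011. The same limit holds for these values, which are part of those the family was selected on.

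**Figure D2:**
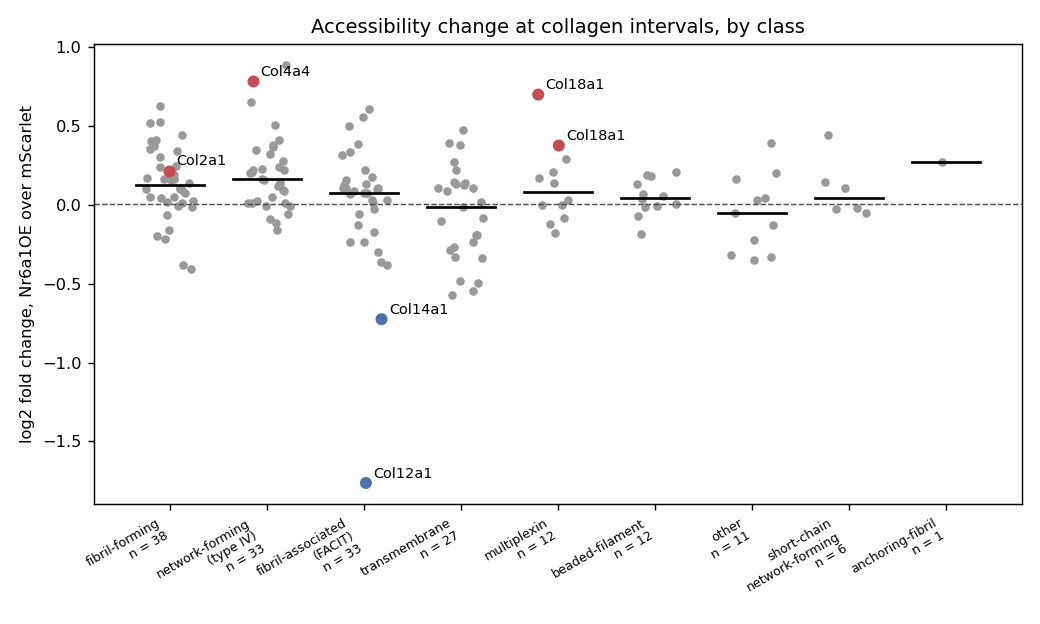
Log2 fold change of Nr6a1OE over mScarlet (y axis) at the 173 tested collagen intervals, by collagen class (x axis, with the number of intervals). Each point is 1 interval, red for opened and blue for closed, the bars are class medians and the dashed line is the median of all intervals, at 0.0038. Type IV and fibril-forming intervals sit mostly above 0, with class medians of 0.161 and 0.124, and transmembrane ones on both sides of it, and the closed interval of Col12a1 lies far below the rest at -1.76.

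Fibril-forming collagens had 38 tested intervals, 30 of them above 0, with a median log2 fold change of 0.124. The opened one covers an end of Col2a1, the gene of the type II chain of cartilage, at chr15:98001314-98004989. It had 81.9, 83.6 and 89.3 CPM in mScarlet 1 to 3 and 94.0, 101.6 and 100.7 CPM in Nr6a1OE 1 to 3. The lowest Nr6a1OE library was above the highest mScarlet library, and the means of 84.9 ± 3.88 and 98.8 ± 4.12 CPM (SD, n = 3 each) gave a log2 fold change of 0.22 (SE 0.048). This call was made in each of the 6 fits that left out 1 library, and DESeq2 did not make it. The other intervals inside Col2a1 were close to even, at 26.8 ± 2.91 and 27.7 ± 2.85 CPM (chr15:97989531-97990578) and at 28.9 ± 1.83 and 29.3 ± 2.12 CPM (chr15:97992511-97993559). Their groups overlapped, with log2 fold changes of 0.05 (SE 0.085) and 0.02 (SE 0.083).

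Col11a2 makes a chain of type XI collagen, which is found in the core of type II fibrils. Inside the gene, 0.51 kb from the RefSeq start and 2.6 kb from an end of the neighbouring Rxrb, an interval had 10.8, 8.45 and 8.24 CPM in mScarlet and 11.6, 10.9 and 12.9 CPM in Nr6a1OE (chr17:34039652-34042279). A second, 11.2 kb outside the gene at chr17:34077374-34078463, had 6.43, 7.43 and 6.99 CPM in mScarlet and 10.2, 7.91 and 9.46 CPM in Nr6a1OE. The groups did not overlap at either, and neither was called, with log2 fold changes of 0.37 (SE 0.14) and 0.41 (SE 0.16). The strongest fibril-forming start, that of Col5a1, was nearly equal in both groups, at 88.3 ± 2.25 and 91.5 ± 3.47 CPM (log2 fold change 0.05, SE 0.048). The type I genes, the main collagens of bone and skin, had weak intervals at their ends. The interval over an end of Col1a1, which has no entry in the promoter table, gave 7.18 ± 0.609 and 8.29 ± 1.85 CPM, and the one over the start of Col1a2 7.94 ± 1.08 and 8.93 ± 1.87 CPM, with overlapping groups in each case. Col3a1, the type III chain of skin and vessels, had a single interval, at 2.22 ± 0.502 and 3.18 ± 0.573 CPM, with overlapping groups (log2 fold change 0.52, SE 0.28).

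Type IV collagens had 33 tested intervals, of which 27 were above 0, and their median log2 fold change was 0.161. The opened interval lies deep inside Col4a4, whose chain belongs to the basement membrane of kidney glomeruli, 109.7 kb from the RefSeq start (chr1:82476435-82477179). The mScarlet libraries gave 4.79, 4.81 and 5.00 CPM, and Nr6a1OE 7.24, 9.89 and 8.07 CPM. The groups lay well apart and Nr6a1OE 2 was the highest library, with a log2 fold change of 0.78 (SE 0.17). Without Nr6a1OE 2 the value was 0.66 and the call was lost. The neighbouring, stronger Col4a4 interval at chr1:82474298-82475562 had 23.5 ± 0.0978 CPM in mScarlet and 25.5 ± 2.52 in Nr6a1OE, with overlapping groups.

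The Col4a1 and Col4a2 pair, whose chains form the common network of basement membranes, held most of the type IV signal. Away from the shared start, 3 intervals stood above the others of the pair. One lay at chr8:11187305-11188548, 10.5 kb beyond the far end of Col4a1, with 23.0, 20.0 and 21.2 CPM in mScarlet and 23.6, 24.02 and 23.1 CPM in Nr6a1OE. Another, of like level, lay inside Col4a1, 4.1 kb from its end at the shared start (chr8:11308567-11309090), with 22.6, 17.6 and 23.7 CPM in mScarlet and 20.5, 17.2 and 19.9 CPM in Nr6a1OE. Its groups overlapped, with a lower mean in Nr6a1OE and a log2 fold change of -0.16 (SE 0.099) that was not called. The weakest of the 3 lay inside Col4a2 at chr8:11361786-11363604, with 14.2, 15.3 and 13.99 against 16.1, 15.5 and 16.9 CPM. All Nr6a1OE libraries were higher at the first and the last of these, by log2 fold changes of 0.14 (SE 0.094) and 0.16 (SE 0.11) that were not called. At the shared start the groups overlapped, and the log2 fold change of 0.03 (SE 0.055) turned to -0.038 without mScarlet 3.

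The fibril-associated collagens had 33 tested intervals, 22 above 0 and 11 below, with a median of 0.075. They held both closed intervals. Col12a1 makes the chain of type XII collagen, which lies on type I fibrils in dense connective tissue. Its interval at chr9:79605623-79606414, inside the gene and 7.0 kb from an end, had 9.99, 10.1 and 9.24 CPM in mScarlet 1 to 3 and 1.85, 2.54 and 4.04 CPM in Nr6a1OE 1 to 3. All Nr6a1OE libraries were far below all mScarlet libraries, and the log2 fold change of -1.76 (SE 0.19) was the largest of any collagen interval. It was called in all 6 fits that left out 1 library, by DESeq2 and with 10% or 20% of assumed variation between cultures. No other interval of Col12a1 was called. The strongest interval of the gene, 2.7 kb from the other end, had 37.4 ± 1.76 and 35.7 ± 3.25 CPM (chr9:79717115-79719808), and a further one inside it 7.95 ± 0.614 and 8.56 ± 1.07 CPM (chr9:79689557-79690746). Outside the gene, 68.6 kb from its end, the direction was opposite, with 3.29, 3.35 and 3.75 CPM in mScarlet and 3.84, 6.92 and 4.67 CPM in Nr6a1OE (log2 fold change 0.56, SE 0.22, not called).

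Col14a1 codes for type XIV collagen, another protein of fibril surfaces. Its closed interval (chr15:55440769-55441247, inside, 79.8 kb from an end) had 4.93, 5.54 and 5.75 CPM in mScarlet and 3.13, 3.53 and 3.15 CPM in Nr6a1OE, from 22 to 46 fragments per library. The groups did not overlap, with a log2 fold change of -0.73 (SE 0.22), but the call was lost in each of the 6 fits that left out 1 library, in DESeq2 and in the fit with the replicate number as a block. The interval over an end of Col14a1, whose start is not in the promoter table, had 21.5 ± 2.06 and 22.5 ± 0.476 CPM. Among the type IX genes of cartilage, an interval 10.0 kb from the start of Col9a2 had 2.74, 4.52 and 4.00 CPM in mScarlet and 4.69, 6.92 and 5.55 CPM in Nr6a1OE. All Nr6a1OE libraries were higher there, with a log2 fold change of 0.61 (SE 0.21) that was not called. The interval over the Col9a2 start was even, at 14.4 ± 1.68 and 14.8 ± 1.71 CPM.

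**Figure D3:**
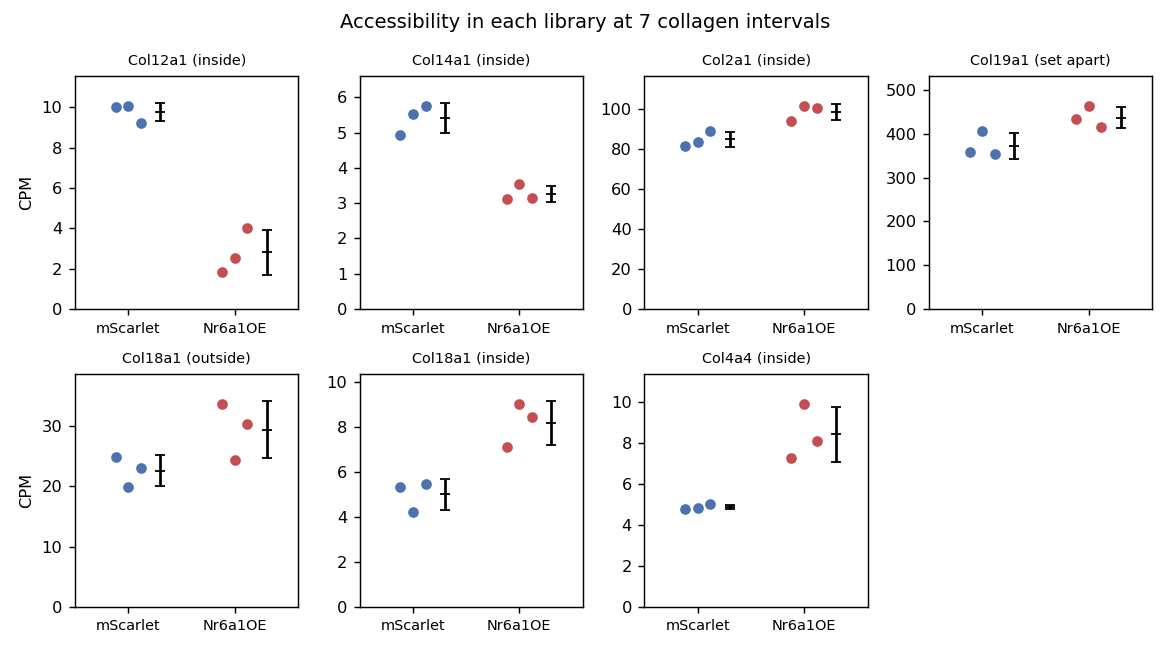
Accessibility (y axis, CPM, from 0) in each library at the 6 called collagen intervals and the interval near Col19a1 that was set apart. Points are libraries 1 to 3 from left to right in each group, and bars are the mean ± SD (n = 3). The groups overlap only at the Col18a1 interval outside the gene, where the lowest Nr6a1OE library, at 24.3 CPM, lies under the highest mScarlet library, at 24.9 CPM.

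The multiplexins are represented by Col15a1 and Col18a1, whose proteins carry endostatin-type domains at their ends, and 7 of their 12 intervals were above 0. Col18a1 held both opened multiplexin intervals and the strongest intervals of the class. The first lies inside the gene, 8.1 kb past the upstream start (chr10:77157236-77158386), and had 5.34, 4.23 and 5.50 CPM in mScarlet 1 to 3 and 7.10, 9.04 and 8.45 CPM in Nr6a1OE 1 to 3. Its groups did not overlap, and its log2 fold change was 0.70 (SE 0.17), or 0.60 without mScarlet 2 and 0.63 without Nr6a1OE 2, when the call was lost. The other lies 24.1 kb upstream of that start (chr10:77190613-77192001) and had 24.9, 19.8 and 23.1 CPM against 33.7, 24.3 and 30.3 CPM. Here mScarlet 2 and Nr6a1OE 2 were the lowest libraries of their groups and the groups overlapped. The log2 fold change was 0.38 (SE 0.088), and the call was lost without mScarlet 2 (0.30) or without Nr6a1OE 1 (0.28).

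Between these intervals the start of Col18a1 itself was the same within its error. It had 87.8, 82.5 and 83.3 CPM in mScarlet and 85.1, 82.1 and 85.8 CPM in Nr6a1OE, a log2 fold change of -0.0024 (SE 0.049). A strong interval further inside, 13.8 kb past that start, was also even, at 29.4 ± 2.57 and 30.1 ± 0.601 CPM. Around the internal start, the interval 2.7 kb from it had 7.90 ± 0.603 and 8.89 ± 0.175 CPM. The interval at the only start of Col15a1 in the table had 7.03 ± 0.0759 CPM in mScarlet and 8.66 ± 1.26 in Nr6a1OE, with groups that did not overlap and no call (log2 fold change 0.29, SE 0.16).

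**Figure D4:**
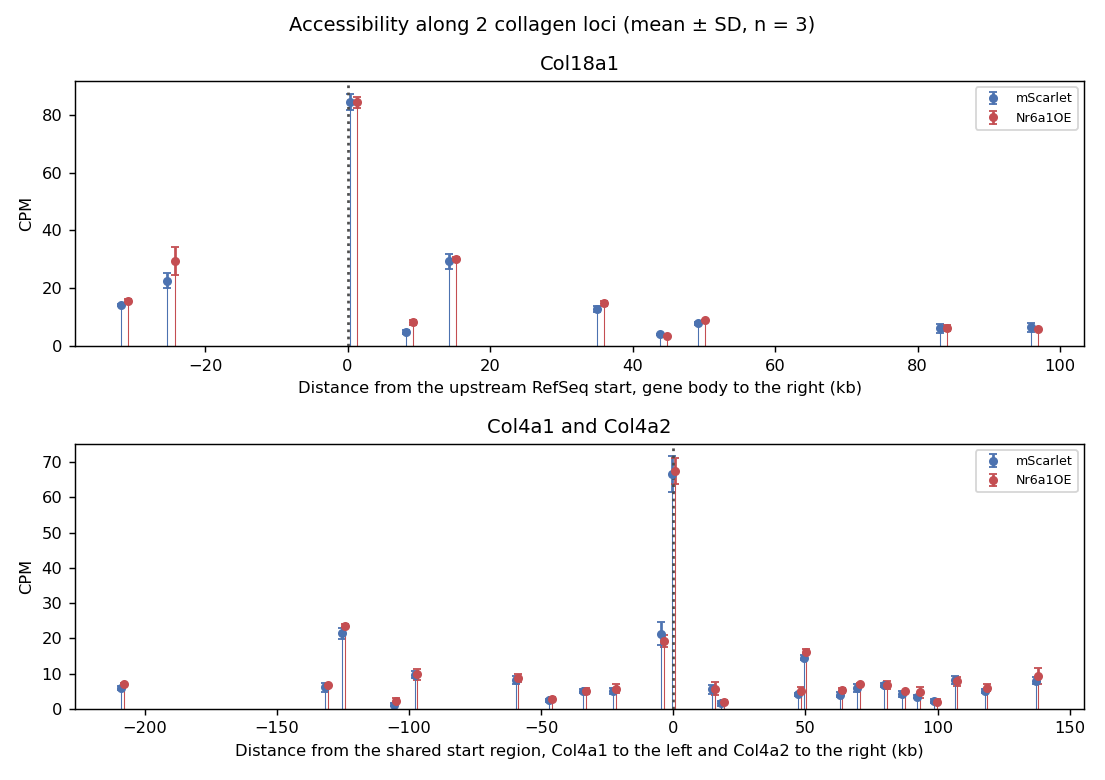
Accessibility (y axis, mean CPM ± SD, n = 3) of each interval along Col18a1 and along the Col4a1 and Col4a2 pair, by distance from the start in kb (x axis); blue is mScarlet and red Nr6a1OE, drawn side by side. The tallest interval of each locus is at the start and is alike in both groups, and at Col18a1 the opened intervals lie to its left at 22.6 and 29.4 CPM and to its right at 5.02 and 8.20 CPM.

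In the transmembrane collagens (types XIII, XVII, XXIII and XXV), which have a membrane-spanning segment, 13 of 27 intervals were above 0 and 14 below, and none was called. Col23a1 had the strongest start of the family per kb and equal groups, at 69.1 ± 2.87 and 69.6 ± 2.09 CPM. At Col13a1 log2 fold changes of opposite sign were found inside 1 gene. One had 5.89, 6.41 and 5.00 CPM in mScarlet and 7.95, 7.91 and 8.07 CPM in Nr6a1OE (chr10:61877732-61879044, log2 fold change 0.48, SE 0.17). Another had 4.24, 2.91 and 4.12 CPM against 2.56, 2.26 and 2.90 CPM (chr10:61936394-61937422, -0.55, SE 0.25). The start of Col13a1 had 37.5 ± 1.81 and 43.6 ± 2.75 CPM, so the groups did not overlap at any of the 3, and none was called. At Col25a1, whose shed ectodomain is known from amyloid plaques, 3 of the inner intervals had log2 fold changes of -0.50, -0.48 and -0.57 from 4.10 CPM or less in Nr6a1OE, all with overlapping groups.

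Of the 12 tested beaded-filament (type VI) intervals 8 were above 0 and none was called. The strongest start there, at Col6a2, had 8.48 ± 1.43 and 8.92 ± 0.630 CPM. An interval 22.8 kb outside Col6a3 had 14.8, 14.9 and 15.4 CPM in mScarlet and 13.9, 13.0 and 12.7 CPM in Nr6a1OE, all lower, with a log2 fold change of -0.19 (SE 0.12). Type VII has a single interval, over the start of Col7a1, the anchoring fibril gene, with 5.34, 5.25 and 4.87 CPM in mScarlet and 7.81, 5.65 and 5.30 CPM in Nr6a1OE. Those groups overlapped, and the log2 fold change was 0.27 (SE 0.19). Among the 6 short-chain intervals, the start of Col8a1 had 4.65, 3.93 and 3.75 CPM against 6.96, 5.09 and 4.79 CPM, without overlap, and that of Col8a2 14.8 ± 1.10 against 16.0 ± 1.74 CPM. The 11 intervals of Col26a1 and Col28a1, grouped as other collagens, split into 5 above and 6 below 0, with none called.

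The members were also divided by position, and the differences between positions were not tested. Of the 23 within 1 kb of an end of their own gene, 21 were above 0 and none was called, with a median of 0.101. Inside the genes beyond 1 kb, 73 of 117 were above 0, with a median of 0.075 and all but 1 of the 6 calls. Distance was taken from the midpoint, so these include the opened Col2a1 interval, which covers a gene end with its midpoint 1.57 kb away. Outside the genes, 22 of 33 were above 0, with a median of 0.136. Over all intervals within 1 kb of any gene end the median was -0.0041, and it was 0.0081 inside and 0.0087 outside genes beyond 1 kb. In the same order, 48.1%, 51.4% and 51.9% of all tested intervals were above 0. Calls were made at 78 of 12591, 409 of 20360 and 407 of 18686 of them. Because the family was selected on this comparison, nothing is read from where its calls lie.

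Intervals were also summed per gene, and 42 collagen genes were tested among 15900 genes. The sums of 33 were above 0 and those of 9 below, with a median log2 fold change of 0.087, beside 0.00059 over all genes. Col11a2 and Col2a1 were called opened and none was closed, where 0.799% of all genes were opened and 0.868% closed. Col11a2 summed to 18.6, 17.2 and 17.5 CPM in mScarlet and 24.7, 21.6 and 23.6 CPM in Nr6a1OE, without overlap (log2 fold change 0.39, SE 0.097). Col2a1 summed to 132, 141 and 148 CPM in mScarlet and 146, 163 and 158 CPM in Nr6a1OE, so mScarlet 3 was above Nr6a1OE 1 (0.15, SE 0.038). Col11a2 was called as a sum though none of its intervals was. Its call was lost without mScarlet 3 (0.38), Nr6a1OE 1 (0.35) or Nr6a1OE 3 (0.38), and that of Col2a1 without mScarlet 1 (0.10), Nr6a1OE 2 (0.11) or Nr6a1OE 3 (0.14). The largest sum was that of Col18a1, at 199, 189 and 192 CPM against 210, 201 and 210 CPM, all higher in Nr6a1OE and not called (0.10, SE 0.033). Col4a2 followed Col2a1 in size, at 143, 144 and 134 CPM against 151, 152 and 147 CPM. Col12a1 had the lowest log2 fold change of a sum, -0.16, from 59.7, 59.2 and 56.8 CPM against 49.9, 49.7 and 56.9 CPM.

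**Figure D5:**
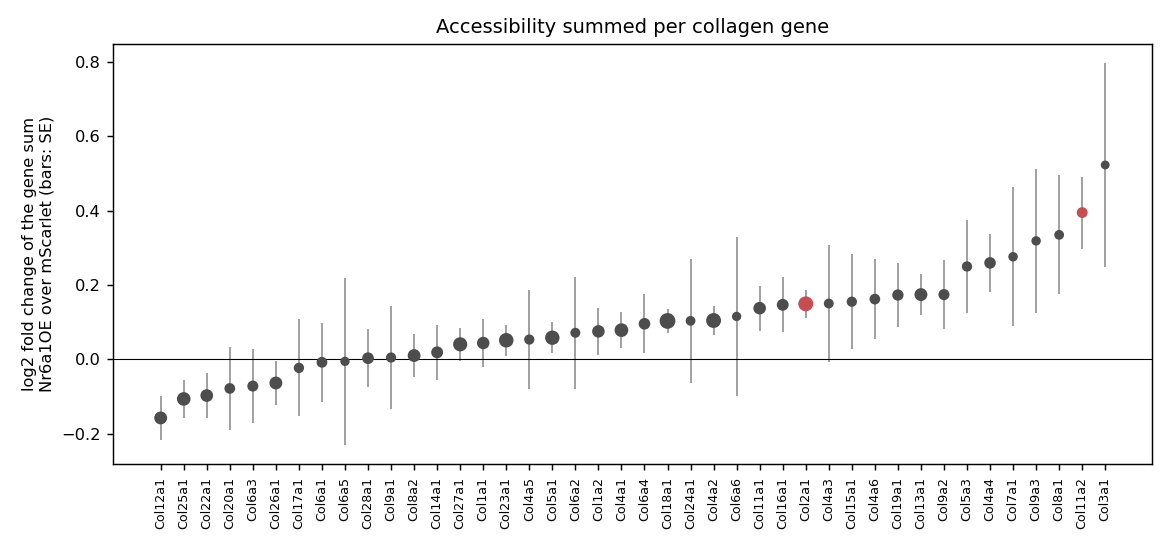
Log2 fold change of the fragments summed per collagen gene (y axis, Nr6a1OE over mScarlet, bars are SE) for the 42 genes with an interval (x axis, in order of the value). Point size follows the mScarlet level, and red marks the 2 genes called opened, Col11a2 and Col2a1. Most genes lie between 0 and 0.2, and Col12a1 is lowest at -0.16.

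Collagens need enzymes for folding, trimming and cross-linking, and receptors on cells. Of 160 tested intervals at such genes 1 was opened and 4 were closed, with a median log2 fold change of 0.012, beside 0.469% opened, 1.26% closed and a median of 0.0038 over all intervals. By role, 0 of 59 intervals of maturation and secretion genes were called, 1 opened and 3 closed of 48 for extracellular processing and cross-linking, 1 closed of 41 for receptors and 0 of 12 for degradation. Tll2 and Tll1 make tolloid-like proteases of the family that trims procollagen. Inside Tll2, an interval fell from 18.6 ± 1.68 to 10.5 ± 1.93 CPM (chr19:41190261-41191886, log2 fold change -0.82, SE 0.12) and a further one from 11.9 ± 0.318 to 7.20 ± 0.242 CPM (chr19:41164049-41165306, -0.72, SE 0.15). The gene end nearest to each was one of the neighbouring Tm9sf3, at 19.8 and 46.2 kb. At Tll1 the interval at the gene end rose from 59.0 ± 6.37 to 67.7 ± 1.88 CPM (0.21, SE 0.057), a call lost in 4 of the 6 fits without 1 library: without mScarlet 1 (0.22), mScarlet 3 (0.12), Nr6a1OE 1 (0.19) or Nr6a1OE 3 (0.20). Near Ddr1, a receptor kinase for collagen, an interval 6.3 kb outside the gene had 8.08, 6.70 and 7.74 CPM in mScarlet and 4.55, 2.83 and 4.04 CPM in Nr6a1OE (chr17:35710412-35711703, -0.98, SE 0.19). Inside Pxdn, whose peroxidase forms the cross-links of type IV collagen, an interval had 20.4, 20.5 and 20.4 CPM against 12.1, 15.8 and 14.8 CPM (-0.52, SE 0.11). The groups did not overlap at any of these 5 intervals.

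Among the partners of collagen in basement membranes (laminins, nidogens, perlecan and the like), 1 of 78 intervals was opened and 0 closed, and 49 were above 0, with a median of 0.067. Over all intervals 0.469% were opened, 1.26% closed and 50.8% above 0, with a median of 0.0038. The opened one lies 8.8 kb outside Itga3, a laminin receptor chain, with 7.39, 7.14 and 5.37 CPM in mScarlet and 8.52, 12.3 and 9.59 CPM in Nr6a1OE (log2 fold change 0.62, SE 0.15), and its call was lost without mScarlet 3 (0.48) or Nr6a1OE 2 (0.46).

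The limit of 100 kb left out 4 intervals whose nearest gene end was that of a collagen. Just inside it lay chr8:11103615-11105042 near Col4a1, at 94.1 kb, with 5.86 ± 0.626 and 7.13 ± 0.205 CPM, and chr6:4416472-4417659 near Col1a2, at 88.6 kb, with 3.77 ± 0.303 and 2.89 ± 0.239 CPM. Just outside lay chr16:57857682-57859155 near Col8a1, at 103.7 kb, with 8.19 ± 0.508 and 8.76 ± 1.14 CPM. Another, chr6:4396509-4398401 near Col1a2, at 108.2 kb, had 31.1, 27.8 and 29.0 CPM in mScarlet and 20.3, 21.1 and 18.3 CPM in Nr6a1OE. That last interval was lower in every Nr6a1OE library, with a log2 fold change of -0.56 (SE 0.091), and is not a member. Its call is not given here. For comparison, the closed interval inside Pxdn had a smaller change and a larger SE (-0.52, SE 0.11). No wider limit was tried, so the counts of members and of opened and closed intervals hold for this limit only.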

How the data were processed

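The deposited table holds counts of fragments per consensus interval, made by the authors with featureCounts 2.0.1 (fractional overlap of at least 0.2, overlapping features allowed, paired ends) on mm10, per the file header and the submitters' processing notes. Which aligner and peak caller they used is not given in the sources used here. Raw counts were filtered with filterByExpr (586 intervals left out), scaled by TMM and compared by edgeR 4.0.16 (R 4.3.3) with its quasi-likelihood test, without covariates. Opened and closed mean a Benjamini-Hochberg adjusted p under 0.05. CPM uses the TMM-scaled library size, and the SE of each log2 fold change was worked out from its F statistic. Gene spans and promoters come from RefSeq (GRCm38.p6). The fit was also run on simulated counts, with differences planted only at better-counted intervals. The spread of those counts was taken from these same libraries, so that run cannot show how the calls hold between separate cultures.

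Members, lists and named intervals were chosen with earlier results of these data known. Named were all called intervals, the strongest gene-end interval of each class, uncalled intervals of large change with groups that did not overlap, those nearest to the limit, and called or largest gene sums; further intervals were named, after their values were seen, to describe the same genes. Nothing says that replicates are separate cultures, so the calls rest only on a spread between libraries that may be technical. Within groups, the chi-square per degree of freedom over 18021 intervals averaging at least 100 fragments ran from 0.999 (Nr6a1OE 1 and 3, no more than counting noise, so also run as 1 sample) to 1.17 (mScarlet 2 and 3). Alternatives were other scalings (DESeq2 size factors, loess offsets, chromosome medians removed), no filter, DESeq2 1.42.0, assumed variation of 10% or 20% between cultures, each library left out, a replicate block, and 3 other assignments.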

Additional observations from a re-analysis of the deposited data

How the results depend on the processing

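The collagen median stayed above 0 under every alternative tried. All of them use the libraries on whose fold changes the family was selected, so this sign supports nothing beyond the description. Opened collagen intervals (4) were 0 in DESeq2, 1 with 10% and 0 with 20% of assumed variation between cultures, and 2 to 4 on leaving out 1 library (2 without mScarlet 2). Closed ones (2) were 1 in each of these 3 fits, on leaving out any of the 6 libraries, and with Nr6a1OE 1 and 3 summed. The median of 0.097 ranged from 0.056 (without Nr6a1OE 2) to 0.116 on leaving out 1 library. Opened gene sums (2) were 0 in DESeq2, 0 with 10% and 0 with 20%, and 0 to 2 on leaving out 1 library (0 without Nr6a1OE 3). Opened processing and receptor intervals (1) were 2 with loess offsets, 0 in DESeq2, 0 with 10%, 0 with 20% and 0 to 2 on leaving out 1 library; closed ones (4) were 1 in DESeq2 and 0 with 20%. The opened basement membrane partner interval (1) gave 0 in DESeq2, 0 with 10%, 0 with 20% and 0 to 1 on leaving out 1 library. The cause of these changes was not tested. Over all intervals DESeq2 called 4 opened and 99 closed, 10% left 19 and 205, and 20% left 0 and 29. With the replicate number as a block, 4 collagen intervals were opened and 1 closed, since Col14a1 was lost. The replicate numbers showed no sign of pairing: deviations from the group means of same-numbered libraries correlated at 0.032, -0.025 and -0.030. Deviations within groups were close to counting noise, which is independent between libraries, so this check cannot show whether the samples were paired. At the Col23a1 start, on chromosome 11, the log2 fold change of 0.016 became -0.043 with chromosome medians removed. That setting takes the median log2 fold change of each chromosome out of its intervals. Over all intervals it gave 209 opened and 647 closed, against 242 and 652 in the main fit. The fall at Col23a1 means that the chromosome 11 median was above 0 in the main fit. Col1a1 and Itga3 also lie on chromosome 11, and 1 basement membrane partner interval was still opened with chromosome medians removed. Gene sums, such as those of Col23a1 (log2 fold change 0.051) and Col1a1 (0.044), were not run in that setting. Low fragment numbers limit the precision at most collagen intervals.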
